A study of Mus musculus with 16 samples.

Results

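The genes described here were 4 Notch receptors (Notch1, Notch2, Notch3 and Notch4), 3 ligands (Jag1, Jag2 and Dll1), 2 target genes (Hes1 and Hey1) and Rbpj, the DNA-binding effector of the pathway. They were taken by symbol, 10 genes of the 43629 listed with reads and of the 24544 listed with FPKM, and all 10 were found in both tables. PolyA RNA was measured in 4 groups, which were AFT024 cells, AFT024 exosomes, BFC012 cells and BFC012 exosomes. AFT024 and BFC012 are stromal cell lines derived from the fetal liver of C57BL/6 mice at 14.5 dpc (days post coitum). The labels call AFT024 supportive and BFC012 non-supportive, and the series title refers this to hematopoietic stem and progenitor cells. Exosomes are small membrane vesicles that cells secrete, and here they were collected from each line. Neither line carried a stated genetic change or treatment, and the serum used in culture is not given in the sources used here. With 1 line of each kind, supportive capacity cannot be told apart from any other difference between the lines. Several extractions of exosome RNA were pooled and divided into technical sequencing replicates that were merged. The tables hold 1 merged value for every group, cells included, so no difference below has a replicate check or a p-value.

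Notch receptors are single-pass membrane proteins that are switched on by ligands on a neighbouring cell. Jagged and Delta-like ligands pull on the receptor, which is then cut by an ADAM protease and by gamma-secretase, and the freed intracellular domain enters the nucleus. There it joins RBPJ and a Mastermind coactivator and switches on genes such as those of the HES and HEY repressors. In blood-forming tissue the pathway is known for roles in the emergence of stem cells and in T cell fate, and stromal cells can present its ligands.

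The merged polyA libraries held 9038471 reads for AFT024 exosomes, 39385534 for AFT024 cells, 16344350 for BFC012 exosomes and 35874383 for BFC012 cells. A floor of 3 reads, the limit that a count of 0 allows, was 0.332 RPM (reads scaled to a library of 1000000) in AFT024 exosomes and 0.184 in BFC012 exosomes, against 0.0762 and 0.0836 in the cells. Stromal markers were abundant, with a summed level of 1304 and 5256 RPM in AFT024 exosomes and cells and of 1004 and 2371 RPM in those of BFC012, although Thy1 was at 0 reads in 3 groups and Lum in 2. None of 8 endothelial markers reached a mean of 1 RPM, their sum was 1.02 to 1.84 RPM, and Tek was at 0 in all 4 groups.

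The promoters of Notch3, Jag1 and Rbpj are printed because these genes carry the main differences among receptors and ligands and the effector on which the receptors converge. Each run covers 250 bases before to 50 after a RefSeq start in GRCm38.p6, written 5′ to 3′ on the gene's strand. The windows are chr17:32166841-32167140 (minus strand), chr2:137116471-137116770 (minus strand) and chr5:53590096-53590395 (plus strand). Rbpj has a further window, chr5:53590236-53590535, that is not printed. Both Rbpj windows lie inside the gene span given below and not at its start. Capitals mark TGGGAA, the core that RBPJ binds, and CACGNG, a site class that HES-type repressors bind, each on either strand.
Notch3: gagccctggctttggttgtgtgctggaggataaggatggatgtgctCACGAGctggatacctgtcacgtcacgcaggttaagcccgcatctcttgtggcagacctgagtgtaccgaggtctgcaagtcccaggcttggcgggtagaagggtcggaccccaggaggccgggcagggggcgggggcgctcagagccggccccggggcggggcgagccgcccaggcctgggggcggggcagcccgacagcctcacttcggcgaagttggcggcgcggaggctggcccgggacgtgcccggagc
Jag1: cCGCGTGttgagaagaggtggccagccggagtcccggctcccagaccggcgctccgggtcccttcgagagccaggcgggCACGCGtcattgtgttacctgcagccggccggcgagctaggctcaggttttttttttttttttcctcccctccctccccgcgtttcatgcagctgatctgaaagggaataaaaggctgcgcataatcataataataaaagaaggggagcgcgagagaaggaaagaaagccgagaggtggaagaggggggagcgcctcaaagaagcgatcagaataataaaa
Rbpj: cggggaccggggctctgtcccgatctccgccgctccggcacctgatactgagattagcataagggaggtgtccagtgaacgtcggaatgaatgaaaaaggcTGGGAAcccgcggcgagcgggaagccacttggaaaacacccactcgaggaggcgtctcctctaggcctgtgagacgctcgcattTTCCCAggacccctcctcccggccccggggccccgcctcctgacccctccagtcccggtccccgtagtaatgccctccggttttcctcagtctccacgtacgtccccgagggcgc
Windows were matched for 8 of the 10 members, Hes1 and Hey1 being named only. TGGGAA was in windows of 1 member, Rbpj, where 25.6% of 32851 mouse promoters of this length held it. CACGNG was in those of 5 members, where 27.5% of promoters held it, once in the Notch3 window and at 2 places in that of Jag1. These matches describe letters in a window, and no binding was measured.

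Levels within a group are compared in FPKM, which is per transcript length. Rbpj led in both cells, at 24.3 FPKM in AFT024 and 14.4 in BFC012. In AFT024 exosomes Notch3 led with 49.3 FPKM, above Rbpj at 7.62 and Notch2 at 5.82. In BFC012 exosomes the levels lay closer together, with Notch1 at 8.44, Notch2 at 8.0, Notch3 at 6.23, Jag1 at 4.28 and Rbpj at 4.09 FPKM. Of all 24544 genes, 4.88% were at or above Notch3 in AFT024 exosomes and 60.7% in BFC012 cells. The lowest members were Dll1 in both BFC012 groups and in AFT024 cells, and Hey1 in AFT024 exosomes, where it was listed at 0.

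**Figure D1:**
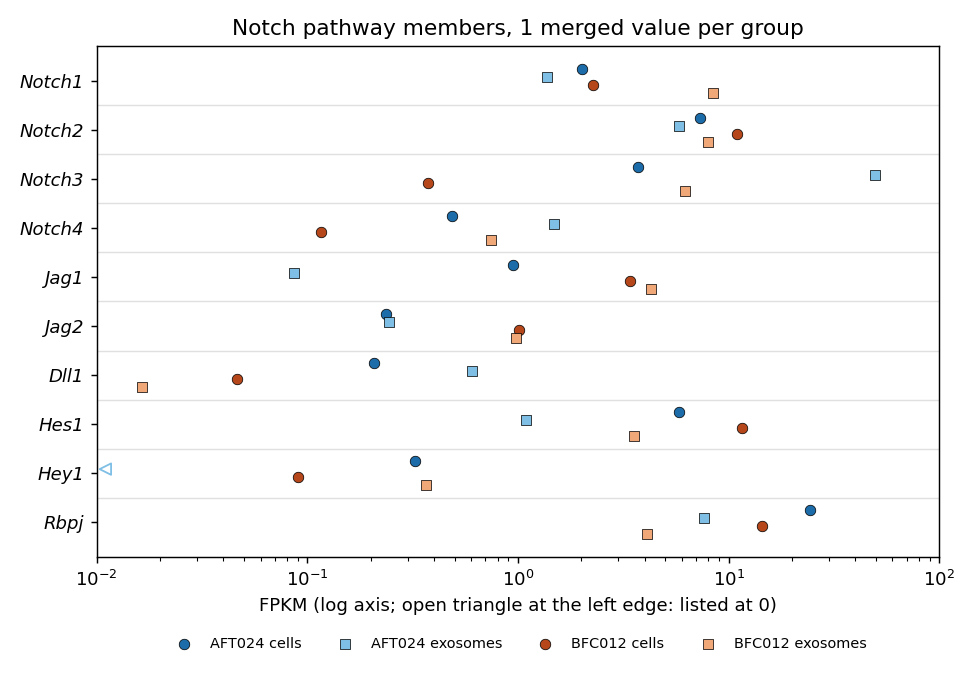
FPKM on a log axis for the 10 members, with 1 point for the merged value of each group (circles for cells, squares for exosomes). Notch3 at 49.3 FPKM in AFT024 exosomes is the rightmost point, and the open triangle marks Hey1, which was listed at 0 in AFT024 exosomes.

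The mix of receptors differed between cells and exosomes and between the lines. The 4 receptors summed to 13.5 FPKM in cells of AFT024 and 13.7 in those of BFC012, and Notch2 made up 54.0% and 79.9% of these sums. Notch3 made up 27.6% of the sum in AFT024 cells and 2.73% in BFC012 cells. In exosomes the receptor sums were 58.0 FPKM for AFT024 and 23.4 for BFC012, and the share of Notch3 was 85.0% and 26.6%. Notch1 took 36.04% of the sum in BFC012 exosomes and 2.37% in AFT024 exosomes. The 3 ligands summed to 1.39 and 4.46 FPKM in AFT024 and BFC012 cells and to 0.932 and 5.27 in their exosomes. Jag1 made up 68.2% of the ligand sum in AFT024 cells, 76.4% in BFC012 cells and 81.1% in BFC012 exosomes, but 9.29% in AFT024 exosomes.

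**Figure D2:**
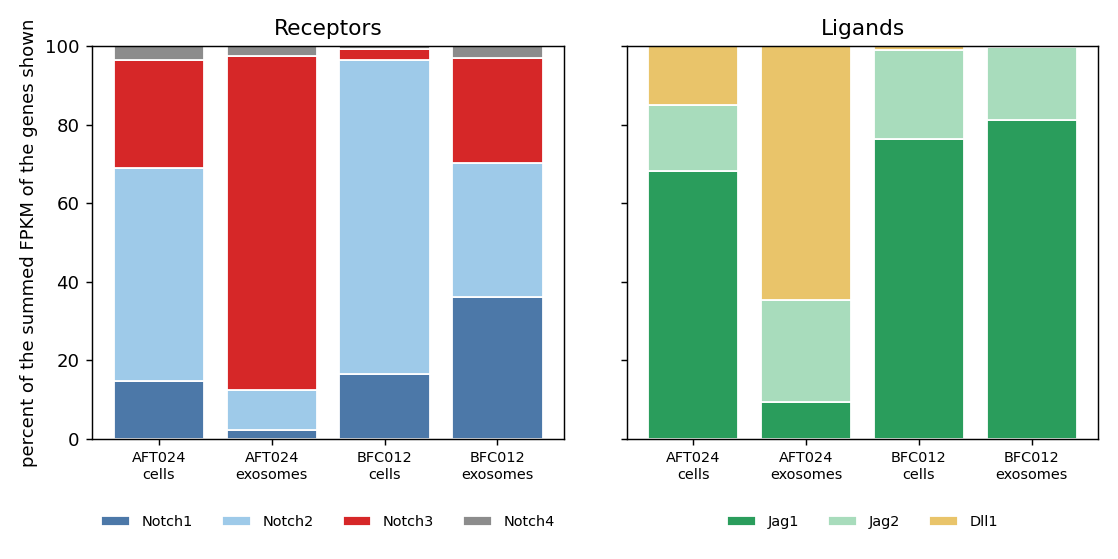
Stacked bars of each gene's percent of the summed FPKM of the 4 receptors (left) and the 3 ligands (right) in each group, 1 merged value per group. Notch3 fills 85.0% of the receptor bar in AFT024 exosomes and 2.73% in BFC012 cells, and Jag1 fills most of every ligand bar but that of AFT024 exosomes.

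Folds below compare whole reads scaled by median-of-ratios size factors and carry an exact Clopper-Pearson 95% interval, which covers counting error only. A gene was called higher or lower where the ratio passed 2-fold and the interval left out 1. Calls over all genes used the 12222 with a mean of at least 1 RPM over the 4 groups, which 8 members reached. Dll1 and Hey1 did not, with a mean of 0.606 and 0.521 RPM, and their ratios are given without entering the counts. In bulk samples fewer cells of a type and less RNA per cell cannot be told apart, nor fewer vesicles and less RNA per vesicle.

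Exosomes were set against the cells of the same line to see which Notch transcripts the vesicles held in excess or in short supply. Notch3 was 33.9-fold higher in exosomes in AFT024 and 33.5-fold in BFC012, and Notch1 was 7.53-fold higher in BFC012. Jag1 was lower in the exosomes of AFT024 and higher in those of BFC012, and Hes1 was lower in AFT024 exosomes. In AFT024, 3 of 8 members were higher in exosomes and 2 lower, where 20.7% of all genes were higher and 27.2% lower. In BFC012, 3 of 8 were higher and 0 lower, where the shares of all genes were 22.9% and 25.7%. The median log2 ratio of the 8 members was 0.46 in AFT024 and 0.73 in BFC012, beside -0.24 and -0.09 over all genes tested.

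Notch3 (ENSMUSG00000038146, mm10 chromosome 17, 32120820 to 32166880, minus strand) encodes the receptor best known from vascular smooth muscle cells and pericytes. It had 8280 reads in AFT024 exosomes, 1425 in AFT024 cells, 1412 in BFC012 exosomes and 131 in BFC012 cells. Despite the much smaller exosome libraries, the exosomes of each line thus held more Notch3 reads than the cells did. The ratio to the cells was 33.9 (32.0 to 35.9) for AFT024 and 33.5 (28.0 to 40.4) for BFC012. Of the genes tested, Notch3 ranked 98 from the top in AFT024 and 61 in BFC012. The log2 difference between these ratios was 0.02 (-0.25 to 0.29), so the lines did not differ beyond counting error in this fold. In FPKM the exosome value was 13.2 times that of the cells in AFT024 and 16.7 times in BFC012. An annotated antisense gene, Gm17276, overlaps Notch3 over 21.0 kb and had 3 reads in AFT024 exosomes and 0 in the other groups. Whether reads were counted by strand is not given in the sources used here, so reads of this pair cannot be told apart. The summed smooth muscle and pericyte markers were 157 RPM in exosomes and 1495 in cells of AFT024, and 172 and 1690 RPM in those of BFC012. Single markers of this list went both ways. Of the 5 tested, AFT024 had 2 higher in exosomes and 3 lower, where 20.7% and 27.2% of all genes were. BFC012 had 2 and 2, where the shares of all genes were 22.9% and 25.7%. Named after their values were seen, the smooth muscle actin gene Acta2 had ratios to the cells of 0.00956 for AFT024 and 0.141 for BFC012. Cspg4, a pericyte proteoglycan gene, was higher, at 5.68 (5.26 to 6.14) and, from 11 reads against 1, at 34.2 (4.97 to 1471). Their part in the Notch3 values was not tested.

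Notch1 (ENSMUSG00000026923, chromosome 2, 26457903 to 26516663, minus strand), the receptor needed for T cell fate and for stem cell emergence, had 264 reads in AFT024 exosomes, 864 in AFT024 cells, 2217 in BFC012 exosomes and 915 in BFC012 cells. The value for BFC012 exosomes stood apart from the other groups. Of overlapping genes on the opposite strand, 0610009E02Rik had 8, 32, 20 and 21 reads in the same order, few beside those of Notch1. The ratio to the cells was 7.53 (6.97 to 8.14) for BFC012 and 1.78 (1.55 to 2.05) for AFT024, short of 2-fold. In AFT024 the direction rested on the measure, since FPKM was 1.38 in exosomes against 2.00 in cells. Relative to the shift of the median gene in FPKM plus 1, a log2 of -1.15, the AFT024 value was 0.81, beside 0.83 in reads.

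Notch2 (ENSMUSG00000027878, chromosome 3, 98013538 to 98150367, plus strand) was the receptor with the most FPKM in both cells. It had 1273 reads in AFT024 exosomes, 3653 in AFT024 cells, 2348 in BFC012 exosomes and 5022 in BFC012 cells. Its ratio to the cells was 2.03 (1.91 to 2.17) in AFT024, just past 2-fold, and 1.45 (1.38 to 1.53) in BFC012. In FPKM the values ran the other way, at 5.82 against 7.31 in AFT024 and 8.0 against 10.9 in BFC012. The median gene shifted by a log2 of -1.15 and -0.77 in FPKM plus 1. Relative to it Notch2 stood at 0.86 and 0.36, in the direction of the reads. Scaled to library size the ratios were 1.52 and 1.03, and the call in AFT024 was lost. It was also lost with TMM (trimmed mean) scaling, at a log2 of 0.91, and with the authors' pair size factors, at 0.95.

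Notch4 (ENSMUSG00000015468, chromosome 17, 34564268 to 34588503, plus strand), best known from endothelial cells, was scarce. It had 26 reads in AFT024 exosomes, 142 in AFT024 cells, 7 in BFC012 exosomes and 27 in BFC012 cells. The ratios to the cells were 1.07 (0.675 to 1.63) in AFT024 and 0.806 (0.296 to 1.90) in BFC012, so no difference was detectable at this depth. FPKM was higher in exosomes, at 1.49 against 0.485 in AFT024 and 0.745 against 0.116 in BFC012, and the cause of this disagreement with the reads was not tested.

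Among the ligands, Jag1, whose product Jagged1 is a main Notch ligand of stromal and vascular cells (ENSMUSG00000027276, chromosome 2, 137081456 to 137116644, minus strand) had 10 reads in AFT024 exosomes, 250 in AFT024 cells, 662 in BFC012 exosomes and 832 in BFC012 cells. AFT024 exosomes were the low group by a wide margin. The ratio to the cells was 0.233 (0.111 to 0.436) for AFT024 and 2.47 (2.23 to 2.74) for BFC012, in opposite directions with intervals that lay apart. Intervals on opposite sides of 1 were found for 1 of the 8 members tested and for 7.41% of all genes tested. Relative to the shift of the median gene in FPKM plus 1, a log2 of -1.15, the AFT024 value was 0.30. With 1 added, the cell FPKM of 0.950 left no room for a value below 0 on this measure. With 0.1 added in place of 1, Jag1 stood at -2.49 beside -1.46 for the median gene. In FPKM, Jag1 stood at 0.0866 in exosomes and 0.950 in cells of AFT024, and at 4.28 and 3.41 in those of BFC012. The BFC012 ratio did not pass 2-fold when scaled to library size, at 1.75.

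Jag2 (ENSMUSG00000002799, chromosome 12, 112908590 to 112929495, minus strand), the second Jagged ligand, had 20 reads in AFT024 exosomes, 46 in AFT024 cells, 111 in BFC012 exosomes and 181 in BFC012 cells. Its ratio to the cells was 2.54 (1.42 to 4.37) for AFT024 and 1.91 (1.49 to 2.43) for BFC012, and the intervals overlapped. Scaled to library size the AFT024 ratio was 1.89, short of 2-fold. FPKM was nearly level, at 0.243 against 0.236 in AFT024 and 0.980 against 1.01 in BFC012. Dll1 (ENSMUSG00000014773, chromosome 17, 15367354 to 15376872, minus strand), the only Delta-like member, had 11 reads in AFT024 exosomes, 35 in AFT024 cells, 2 in BFC012 exosomes and 7 in BFC012 cells. Its ratios of 1.83 (0.840 to 3.69) and 0.888 (0.0900 to 4.66) show no difference detectable at this depth. The overlapping gene A930024N18Rik on the opposite strand had 8 reads in BFC012 exosomes and 0 in the other groups, and how reads of the overlap were assigned is not stated.

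Of the targets, Hes1 (ENSMUSG00000022528, chromosome 16, 30064384 to 30067796, plus strand), a basic helix-loop-helix repressor, had 7 reads in AFT024 exosomes, 358 in AFT024 cells, 124 in BFC012 exosomes and 656 in BFC012 cells. Both exosome groups held less than their cells, with a ratio of 0.114 (0.0455 to 0.237) in AFT024 and 0.587 (0.481 to 0.713) in BFC012. The former ranked 232 from the bottom of the genes tested and the latter did not pass 2-fold, though it was 0.415 when scaled to library size. In FPKM, Hes1 stood at 1.10 against 5.84 in AFT024 and 3.57 against 11.6 in BFC012. Relative to the shift of the median gene in FPKM plus 1, the AFT024 value was a log2 of -0.56, which does not pass 2-fold. Hey1 (ENSMUSG00000040289, chromosome 3, 8663359 to 8667256, minus strand), a related repressor, had 0 reads in AFT024 exosomes, 36 in AFT024 cells, 15 in BFC012 exosomes and 9 in BFC012 cells. Its AFT024 exosome value, set to the floor of 3 reads, was 2.06-fold lower than that of the cells. The counting interval of the AFT024 ratio reached up to 0.630, which does not pass 2-fold, and in BFC012 the ratio was 5.18 (2.12 to 13.4).

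Rbpj (ENSMUSG00000039191, chromosome 5, 53555779 to 53657445, plus strand) had 822 reads in AFT024 exosomes, 5420 in AFT024 cells, 586 in BFC012 exosomes and 2943 in BFC012 cells. Its ratio to the cells was 0.885 (0.821 to 0.952) for AFT024 and 0.619 (0.565 to 0.676) for BFC012. Both lay below 1 and short of 2-fold, although that of BFC012 was 0.437 when scaled to library size, and the FPKM values of 7.62 against 24.3 and 4.09 against 14.4 had the same direction.

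**Figure D3:**
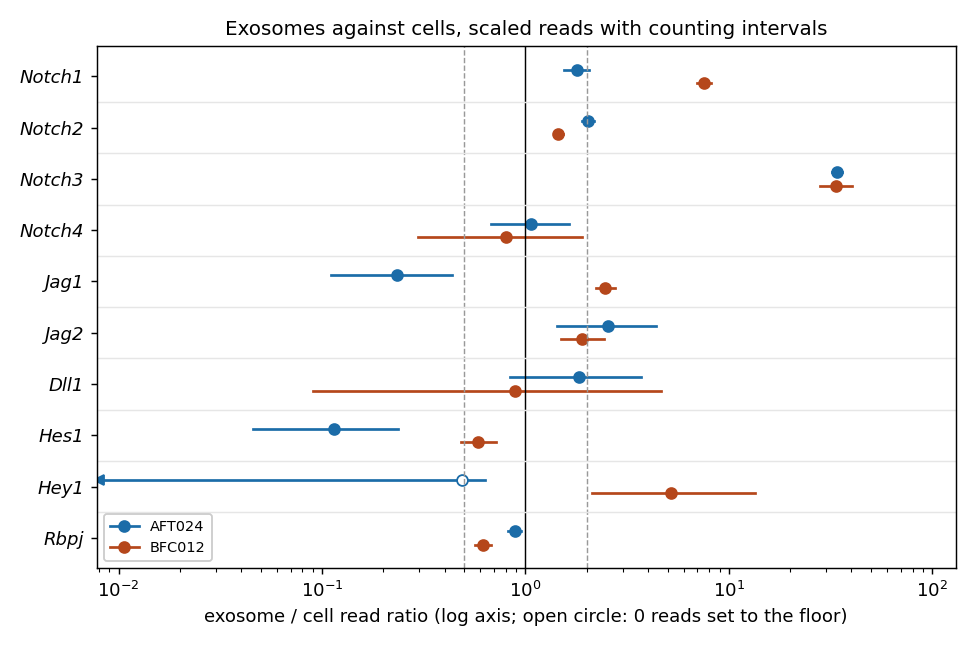
Ratio of scaled reads in exosomes to those in cells on a log axis for each member, with bars for the exact 95% counting interval, in AFT024 (blue) and BFC012 (red). Dashed lines mark 2-fold, and Notch3 lies at 33.9 and 33.5 while Jag1 lies on opposite sides of 1.

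Between the lines, the intervals of the exosome-to-cell ratio lay apart for 6 of the 10 members, or 5 of the 8 tested, where 50.6% of all genes tested had intervals apart. The ratio of BFC012 was 10.6 times that of AFT024 for Jag1, 4.22 times for Notch1 and 5.15 times for Hes1, and 10.7 times for Hey1 with AFT024 set to the floor. It was lower in BFC012 for Notch2 and Rbpj, at 0.715 and 0.699 of the AFT024 ratio. Notch3, Notch4, Jag2 and Dll1 had intervals that overlapped between the lines. With merged values these differences have counting intervals but no test.

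**Figure D4:**
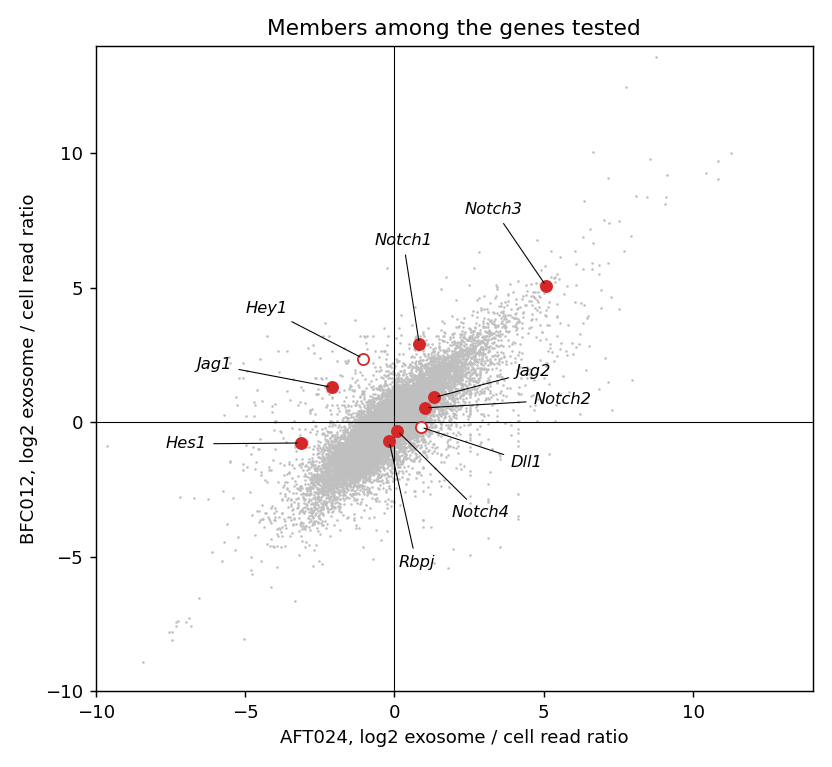
Log2 exosome-to-cell read ratio in AFT024 (horizontal) against BFC012 (vertical) for the genes tested (grey) and the members (red; open where the mean was under 1 RPM). Notch3 lies at the top right near 5 on both axes, and Jag1 and Hey1 lie left of 0 and above 0.

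The cells were compared next, to see which Notch components set the supportive line apart from the other. AFT024 cells held more of the receptors Notch3 and Notch4, and BFC012 cells more of the ligands Jag1 and Jag2. Of 8 members, 2 were higher in AFT024 cells and 2 lower, where 9.89% of all genes were higher and 7.75% lower. The median log2 ratio was -0.37 for the 8 members and -0.01 for all genes tested. Notch3, with 1425 reads against 131, gave 10.1 (8.46 to 12.2), and Notch4, with 142 against 27, gave 4.90 (3.23 to 7.69). Jag1, with 250 reads against 832, gave 0.280 (0.242 to 0.323), and Jag2, with 46 against 181, gave 0.237 (0.167 to 0.329). Hes1 lay just short of 2-fold at 0.508 (0.445 to 0.579), and just past it at 0.497 when scaled to library size. On the log2 scale of FPKM plus 1, Notch4 at 0.41 and Jag2 at -0.70 did not pass 2-fold, but with 0.1 added in place of 1 they did, at 1.44 and -1.72. Notch1 at 0.879 (0.800 to 0.966), Notch2 at 0.677 (0.649 to 0.707) and Rbpj at 1.71 (1.64 to 1.79) differed by less than 2-fold. Of the scarce members, Dll1 gave 4.65 (2.04 to 12.4) and Hey1 3.72 (1.76 to 8.79). Mesothelial markers also differed between the lines, with a sum of 94.2 RPM in AFT024 cells against 546 in BFC012 cells and of 61.0 against 135 in the exosomes. Of these 6 markers, 5 were lower and 1 higher in AFT024 cells, where 7.75% and 9.89% of all genes were. In AFT024 exosomes 4 were lower and 1 higher, where it was 14.1% and 13.7%. The part of these markers in the Notch values was not tested.

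The exosomes of both lines were also set against each other, which uses the same libraries as the exosome-to-cell ratios. AFT024 exosomes held more Notch3, Notch4 and Rbpj, and BFC012 exosomes more Notch1, Jag1, Jag2 and Hes1. Of 8 members, 3 were higher in AFT024 exosomes and 4 lower, where 13.7% of all genes were higher and 14.1% lower. The median log2 ratio was -0.87 for the 8 members and -0.07 for all genes tested. Notch3 gave 10.2 (9.68 to 10.9) and Notch4, from 26 reads against 7, gave 6.49 (2.74 to 17.7). Rbpj gave 2.45 (2.20 to 2.73). Jag1, with 10 reads against 662, was 37.9-fold (20.5 to 79.4) higher in BFC012 exosomes and ranked 74 from the bottom of the genes tested. Hes1, with 7 against 124, was 10.1-fold (4.78 to 25.7) higher there, and Notch1, with 264 against 2217, was 4.81-fold (4.23 to 5.48) higher. In FPKM the gap for Hes1 was smaller, at 1.10 against 3.57. Relative to the shift of the median gene in FPKM plus 1, its log2 value of -0.81 did not pass 2-fold. Jag2 gave 0.315 (0.185 to 0.510). On the log2 scale of FPKM plus 1, Notch4 at 0.51, Rbpj at 0.76 and Jag2 at -0.67 did not pass 2-fold. With 0.980 FPKM in BFC012 exosomes, Jag2 could not pass it there whatever its AFT024 value. With 0.1 added in place of 1, Jag2 passed at -1.65, and Notch4 at 0.91 and Rbpj at 0.88 did not. Notch2, at 0.947 (0.884 to 1.01), had an interval that held 1 and left no room for a 2-fold difference in these libraries. Hey1, with 0 reads against 15, was 2.86-fold lower in AFT024 exosomes when set to the floor of 3 reads. The counting interval of its ratio reached up to 0.487. Dll1, with 11 against 2, gave 9.61 (2.10 to 89.2).

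**Figure D5:**
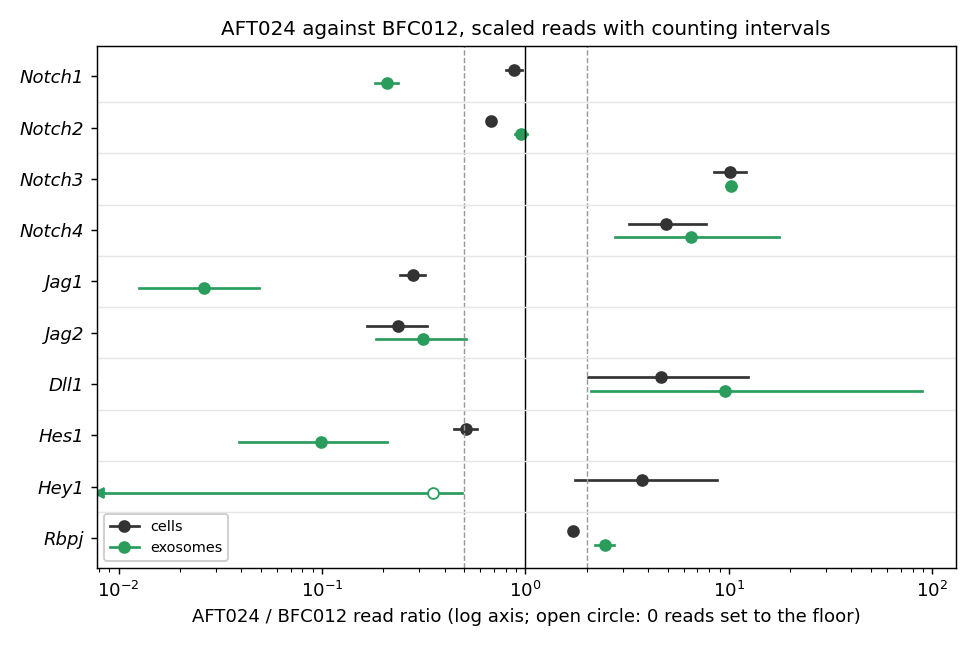
Ratio of scaled reads in AFT024 to those in BFC012 on a log axis for each member, with bars for the exact 95% counting interval, in cells (black) and exosomes (green). Notch3 lies at 10.1 and 10.2, whereas Jag1 lies at 0.280 in cells and 0.0264 in exosomes.

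The authors' deposited table for the cells gave q under 0.05 for 10 of 10 members and for 74.4% of the genes tested, by a Fisher test on merged reads, which speaks of the libraries and not of repeated cultures. In the authors' deposited table for the exosomes of both lines it was 9 of 10 members and 66.2% of genes, Notch2 being the exception with q = 1.0. The authors' deposited tables of exosomes against cells had q under 0.05 for 6 of 9 listed members in AFT024 and 6 of 10 in BFC012, where 84.8% and 85.1% of genes had it. For Notch3 the authors' deposited tables gave log2 ratios of 5.01 and 4.97 for exosomes against cells in AFT024 and BFC012, and 3.39 and 3.36 for AFT024 against BFC012 in cells and exosomes.

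The wider pathway was described with 65 further genes, of which 53 passed the filter. In AFT024, 12 were higher and 12 lower in exosomes than in cells, where the shares of all genes were 20.7% and 27.2%. In BFC012 16 were higher and 9 lower, beside 22.9% and 25.7% of all genes. Between the lines, 3 were higher and 3 lower in AFT024 cells, where 9.89% and 7.75% of all genes were, and 6 higher and 9 lower in AFT024 exosomes, where it was 13.7% and 14.1%. Nothing particular to the pathway is read from these counts. Of 10 genes of receptor maturation and cleavage, AFT024 exosomes had 5 lower and 2 higher than the cells, and BFC012 exosomes 6 lower and 2 higher, where 27.2% and 25.7% of all genes were lower. The 2 higher were the same in both lines and were named after their values were seen. Aph1a gave 2.21 in AFT024 and 3.18 in BFC012, and Aph1c gave 2.53 and 2.10. With FPKM plus 1, 0 of the 10 were higher in either line, and 5 and 6 were lower. Lower values were common on that measure, with 6214 of 11407 genes lower in AFT024 and 4949 in BFC012. Those higher numbered 709 and 879. Adam10, the protease of the first cut, gave 0.270 (0.238 to 0.307) in AFT024 and 0.249 (0.237 to 0.261) in BFC012. Ncstn, the nicastrin subunit of gamma-secretase, gave 0.0778 (0.0591 to 0.101) and 0.0836 (0.0688 to 0.101), and was listed at 0 FPKM in both exosome groups despite 59 and 114 reads. Psenen, another subunit, gave 0.527 (0.403 to 0.678) in AFT024, short of 2-fold, and 0.225 (0.165 to 0.300) in BFC012.

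Of 14 genes of ligand and receptor ubiquitination and trafficking, 6 were higher in AFT024 exosomes and 5 in BFC012 exosomes, and 0 were lower in either, where 20.7% and 22.9% of all genes were higher and 27.2% and 25.7% lower. On the log2 scale of FPKM plus 1 the counts were 1 higher and 4 lower for AFT024, and 2 each way for BFC012. All genes shifted down on this scale, with 6214 of 11407 lower in AFT024 and 4949 in BFC012. Those higher numbered 709 and 879. Dtx3, a Deltex-family gene named after its values were seen, was past 2-fold lower on this scale in both lines, at -1.81 and -1.34. The median gene stood at -1.15 and -0.77 there. In reads Dtx3 was short of 2-fold, at 0.614 in AFT024 and 0.719 in BFC012. Neurl2, a neuralized-family gene, gave 9.01 (6.86 to 11.9) in AFT024 and 6.28 (5.13 to 7.72) in BFC012, but was listed at 0 FPKM in both cells despite 90 and 144 reads. Neurl1b, another of the family, gave 4.20 (3.52 to 5.01) in AFT024 and 5.58 (5.01 to 6.22) in BFC012. On the log2 scale of FPKM plus 1 it was 0.41 and 1.13. Maml3, a Mastermind coactivator, gave 6.20 (5.48 to 7.01) and 7.73 (6.96 to 8.59). Spen, a corepressor partner of RBPJ, gave 7.22 (6.86 to 7.59) and 7.67 (7.28 to 8.07). Of the Groucho-type corepressor genes, Tle1 gave 0.147 (0.0917 to 0.224) and 0.338 (0.263 to 0.429), lower in the exosomes of both lines. Tle2 gave 0.826 (0.647 to 1.04) in AFT024 and 4.48 (3.88 to 5.18) in BFC012.

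Dlk1, a Delta-like protein without the domain that activates Notch receptors, had 233 reads in AFT024 exosomes, 29686 in AFT024 cells, 5 in BFC012 exosomes and 9 in BFC012 cells. AFT024 was the high line in both fractions. Its read ratio of AFT024 over BFC012 was 3070 (1617 to 6715) in cells and 81.4 (34.4 to 253) in exosomes, and AFT024 exosomes stood at 0.0458 (0.0401 to 0.0521) of the cells. Between the cells, Neurl1a gave 11.5 (7.35 to 18.9), Mfap2, a microfibril gene, 3.32 (2.82 to 3.93) and Adam10 0.211 (0.205 to 0.218). Between the exosomes, Neurl1a gave 7.26 (5.53 to 9.64) and Adam10 0.230 (0.201 to 0.262). The others named there were all lower in AFT024 exosomes, Tle2 at 0.308, the corepressor gene Ctbp1 at 0.387, Neurl1b at 0.417, the ligand ubiquitin ligase gene Mib2 at 0.419 and Poglut1, an O-glucosyltransferase gene of Notch repeats, at 0.426. Among other targets, Nrarp, a feedback inhibitor chosen after its values were seen, had 2 reads in AFT024 exosomes, 3 in AFT024 cells, 107 in BFC012 exosomes and 118 in BFC012 cells. In reads Nrarp was higher in BFC012, as Jag1 and Hes1 were, although FPKM listed it at 0 in both exosome groups. Targets did not all go this way between the cells. Hes6, the other one tested in this list, gave 1.63 (1.39 to 1.90). Below the filter, AFT024 cells had more reads of Hey1, 36 against 9, and of Hey2, 23 against 1. They had fewer of Hes7, 3 against 10. Hes6, Hey2 and Hes7 were also named after their values were seen.

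Transcript length and base composition moved with the exosome-to-cell ratio over all genes. Genes were put in 5 bins of about equal size by the length of the longest GENCODE transcript, matched for 93.1% of the genes tested. The median log2 ratio in the longest bin was 0.24 in AFT024 and 0.36 in BFC012, and in the shortest bin -0.41 and -0.58. Notch1, Notch2, Notch3, Notch4, Jag1 and Rbpj lay in the longest bin and Hes1 in the shortest. In the bin of highest GC content, which held Notch1, Notch3, Notch4 and Jag2, the medians were -0.06 and 0.33. The log2 ratio of Notch3 was 5.08 and 5.07, and the part of length and base composition in the ratios of the members was not tested.

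The genes whose pattern over the 4 groups lay closest to a member were sought among 9099 genes with a mean of at least 10 RPM, by the Euclidean distance of centred log2 scaled reads. For Notch3 they were Fgd3 at 0.77, Prkag3 at 1.77 and Trim12c at 1.82. For Jag1 they were Pde5a at 0.66, Nrep at 0.76 and Zfp521 at 1.04. For Hes1 they were Myo1d at 0.57, Pcsk6 at 0.75 and Marcks at 0.78. With 4 groups these distances describe likeness only.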

How the data were processed

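PolyA RNA of 4 groups (AFT024 and BFC012, cells and exosomes, 2 samples each in the labels) was used, and the small RNA tables were not used here. Per the labels' protocols, RNA was extracted with Trizol, selected with oligo-dT beads and made into libraries with a TruSeq RNA kit. The submitters' processing notes name TopHat, Cufflinks, Bowtie and the build mm10. Which tool counted the reads is not stated in them. The authors deposited FPKM for all groups and, in 4 pairwise tables, reads divided by a size factor with log2 ratios and p-values and q-values of a Fisher test, per the file headers. Whole read counts were recovered from the deposited values by division of every column by the smallest step in it, and 100% were whole within 0.01. Reads of a group differed between tables for 0 genes. The AFT024 table of exosomes against cells lists 16224 genes. Of the columns with polyA values per group, 0 were left unused.

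Ratios used median-of-ratios size factors over the 4 groups, exact Clopper-Pearson intervals at 95%, a floor of 3 reads for 0, and a filter of a mean of 1 RPM. The planned call was 2-fold with an interval leaving out 1. With 1 merged value per group no test was possible. Named genes were all members, Dlk1, at most 8 other pathway genes per comparison with the largest ratios called in reads and past 2-fold in FPKM plus 1, and the 3 nearest patterns of Hes1 and of the receptor and the ligand with most FPKM. Of the named pathway genes, 1 is not reported here. The members and lists were chosen with earlier results of these data known. Alternatives changed the scaling, measure, pseudocount, filter and threshold. File starts plus 1 are printed, equal to the GENCODE start for 7 members. The ratio and call steps were tested on simulated data. Python 3.11.15, NumPy 2.4.6, pandas 2.3.3, SciPy 1.17.1 and Matplotlib 3.10.9 were used.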

Additional observations from a re-analysis of the deposited data

Results flagged for a closer look

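The exosome-against-cell change went in opposite directions in the lines for 2 members, and neither difference was tested. Of the genes tested, 7.41% went in opposite directions by the same measure, and so did 1 of the 8 members tested, Jag1. For Jag1 the AFT024 ratio was 0.0944 of the BFC012 ratio, from 10 and 250 reads in AFT024 exosomes and cells and 662 and 832 in those of BFC012. For Hey1 it was 0.0939 of the BFC012 ratio, with 0 reads in AFT024 exosomes set to the floor of 3, from 36 reads in AFT024 cells and 15 and 9 in BFC012 exosomes and cells. Relative to the median gene in FPKM plus 1, log2 values in AFT024 and BFC012 were 0.30 and 1.03 for Jag1 and 0.74 and 1.10 for Hey1. This measure could not give a value below 0 in AFT024 for either gene. With 1 added, their cell FPKM of 0.950 and 0.325 allows a smaller fall than the median gene's log2 of -1.15. It therefore cannot decide on the direction in AFT024.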

How the results depend on the processing

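No paired analysis was possible because the deposited columns merge the replicates of each group, and for the same reason leaving out each replicate was not run. The 8 counts of members higher or lower kept within 1.5 times their value in 60 of 80 recomputations and moved in 20. With library size scaling, AFT024 exosomes against cells had 1 member higher and BFC012 exosomes against cells 2 lower. With FPKM plus 1 these counts were 1 and 2, the cells of both lines had 1 higher and 1 lower, and the exosomes of both lines 1 higher. FPKM plus 0.1 gave 2 lower in BFC012 exosomes against cells and 1 higher between the exosomes. Without a filter 4 members were higher in AFT024 cells. A mean of at least 10 RPM left 1 lower in AFT024 exosomes against cells, 1 higher and 1 lower between the cells and 2 lower between the exosomes. A 1.5-fold threshold gave 2 lower in BFC012 exosomes against cells, and a whole interval past 2-fold gave 1 higher in AFT024 exosomes against cells. FPKM plus 1 relative to the median gene, chosen after seeing the data, gave 0 lower in AFT024 exosomes against cells, 1 higher and 1 lower between the cells and 2 lower between the exosomes. The exosome-to-cell log2 value in AFT024 turned for Notch2 to -0.28 with FPKM plus 1 and -0.32 with FPKM plus 0.1. The cause was not tested. Relative to the median gene in FPKM plus 1, the AFT024 value was 0.30 for Jag1 and 0.74 for Hey1. With cell FPKM of 0.950 and 0.325, this measure could not fall below 0 for them. Of the single member values, 138 stayed, 98 moved and 4 past the threshold reversed. Values short of it also turned, so that 9 of the 40 member ratios took both signs, as in AFT024 Notch1 (0.83 to -0.51) and Notch4 (-0.33 to 1.89) and in BFC012 Notch2 (0.54 to -0.45), Notch4 (-0.81 to 1.97), Jag2 (0.93 to -0.03) and Dll1 (-0.67 to 0.73). Notch3 kept its sign in all 7 measures and scalings, at log2 3.41 to 5.08 and 2.40 to 5.07 for exosomes against cells in AFT024 and BFC012, 1.78 to 3.39 between the cells and 2.80 to 3.41 between the exosomes. TMM scaling (computed in Python) and the authors' pair size factors, the latter chosen after seeing the data, moved no count of members by over 1.5 times. Both took the members higher in AFT024 exosomes against cells from 3 to 2, and TMM took those lower in AFT024 cells from 2 to 3.

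Over all genes, the median log2 ratio of exosomes against cells was -0.24 and -0.09 in AFT024 and BFC012, -0.66 and -0.59 with library size scaling and -1.15 and -0.77 with FPKM plus 1. Higher calls made up 43.2% and 47.1% of calls, but 27.3% and 27.5% with library size scaling and 10.2% and 15.1% with FPKM plus 1. The gene sets differed, with 12222 genes in reads and 11407 with FPKM plus 1. Genes called higher in exosomes numbered 2533 and 2800 in reads and 709 and 879 with FPKM plus 1. Those lower numbered 3329 and 3147 against 6214 and 4949. Between the exosomes of both lines 1679 were higher in reads and 726 with FPKM plus 1, and between the cells 947 were lower in reads and 584 with FPKM plus 1. Depth limits Dll1, Hey1, Notch4 and Jag2, and the AFT024 exosome values of Jag1 and Hes1, which rest on 10 and 7 reads.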
